A study of Mus musculus with 2 samples.

Results

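Neurexins, neuroligins and cerebellins are proteins that link the presynaptic and postsynaptic sides of a synapse. Of the 55450 genes counted in nuclei of the vlPAG, 8 genes of these families were followed: the neurexins Nrxn2 and Nrxn3, the neuroligins Nlgn1, Nlgn2 and Nlgn3, and the cerebellins Cbln1, Cbln2 and Cbln4. They were taken by name as members of these families, with earlier results of these data known. All 8 genes had reads in both libraries.

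Neurexins are adhesion proteins of the presynaptic membrane, and neuroligins are their partners on the postsynaptic membrane. Nlgn1 is best known from excitatory synapses, Nlgn2 from inhibitory synapses and Nlgn3 from both kinds. Cerebellins are secreted, and they join presynaptic neurexins to receptors of the postsynaptic membrane. Cbln1, the founding cerebellin, is released by cerebellar granule neurons onto Purkinje neurons.

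The vlPAG, a ventrolateral part of the midbrain periaqueductal gray, holds GABAergic cells, and the study asked how their expression differed in diet-induced obese (DIO) mice. Single nuclei were sequenced from C57/BL6J mice labelled WT that received either a normal food diet (NFD) or a high-fat diet (HFD) for 7 weeks, starting at 8 weeks of age. Each diet gave 1 library, made from the vlPAG of 18 mice, so mice could not be told apart and there were no replicates. No test between diets was therefore possible, and each interval below is a 95% interval that covers counting error only.

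The unique molecular identifier (UMI) counts amounted to 41180006 in 7625 barcodes for NFD and 55133689 in 6813 barcodes for HFD. These are also the numbers of cells given as analysed in the paper, although its stated filter removes some of them. After that filter, 7500 NFD and 6322 HFD nuclei remained here, with medians of 4504.5 and 7347.5 UMIs per nucleus. Of the kept nuclei, 12 carried a barcode found in both libraries. Clustering without the 8 genes and a list of 46 partner genes gave 22 clusters, which were named from marker genes. Each class name stands for nuclei that resembled that cell type. The GABAergic class held 2082 NFD and 1580 HFD nuclei, in which the 3 GABAergic markers (Slc32a1, Gad1 and Gad2) summed to 519 and 521 CPM (a gene's UMIs over all UMIs of the group, scaled to 1000000) and the 3 glutamatergic markers to 20.4 and 11.5 CPM. Clusters led by cerebellar genes set the HFD library apart, with 10 NFD against 814 HFD nuclei like cerebellar granule neurons and 8 against 61 like cerebellar molecular layer interneurons. Results over all nuclei are therefore given with and without these clusters.

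The neuronal clusters named below are the GABAergic, glutamatergic, serotonergic, dopaminergic and mixed clusters, in all 6183 NFD and 4441 HFD nuclei. In mixed clusters neither transmitter's summed markers reached the excess set for a name. Whether single nuclei carried both was not tested. At the higher clustering resolution run as an alternative, the mixed class fell from 2296 NFD and 1385 HFD nuclei to 207 and 216. The GABAergic class rose from 2082 and 1580 nuclei to 3150 and 2288. The glutamatergic class rose from 1379 and 1197 to 2011 and 1546, and unnamed nuclei from 377 and 364 to 678 and 511. Levels are CPM of the UMIs summed over the nuclei of a group. They are not divided by gene length, so they were compared between cell groups and not between genes. By the GENCODE vM21 annotation of GRCm38, the genes differ widely in length. Nrxn3 (chr12:88722876-90334935, plus strand) spans 1612 kb and Nlgn1 (chr3:25426215-26332460, minus strand) spans 906 kb, and exons make up 0.782% and 1.48% of them. Nrxn2 (chr19:6418731-6544169, plus strand) spans 125 kb. Nlgn2 (chr11:69823122-69837784, minus strand) spans 14.7 kb and Nlgn3 (chrX:101299168-101325963, plus strand) 26.8 kb. The cerebellin genes are short, at 4.21 kb for Cbln1 (chr8:87468405-87472609, minus strand), 7.17 kb for Cbln2 (chr18:86711110-86718283, plus strand) and 7.23 kb for Cbln4 (chr2:172036233-172043466, minus strand). The sources used here do not give whether intronic reads or the strand of reads entered the counting. Cbln1 overlaps Gm2694 on the other strand, so reads of this pair may not be told apart.

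Nrxn3 had its highest levels of the vlPAG classes in GABAergic nuclei. It was found there at 7289 CPM in the NFD library (interval 7241 to 7337) and at 8172 CPM in the HFD library (8128 to 8216). In glutamatergic nuclei it stood at 2587 and 2558 CPM, which makes the GABAergic level 2.82-fold and 3.20-fold higher. The lowest neuronal level was that of glutamatergic cluster 6, led by Npsr1, Nts and Cck, with 1433 CPM in NFD and 1529 CPM in HFD. GABAergic nuclei were 5.09-fold (4.92 to 5.26) and 5.34-fold (5.21 to 5.48) above this cluster. Glutamatergic cluster 1, led by Tac1 and Lhx9, lay between them at 2902 and 3069 CPM. Over the 11 neuronal clusters with at least 50 nuclei in each library, Nrxn3 thus spanned a 5.80-fold range in NFD and a 5.99-fold range in HFD. Dopaminergic nuclei came second among the named vlPAG groups, with 5718 and 5981 CPM. Nuclei like cerebellar molecular layer interneurons, which are also inhibitory, had a still higher level of 14846 CPM in the HFD library, 1.82-fold that of GABAergic nuclei, while 8 nuclei of this kind in NFD gave 11507 CPM.

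Nrxn2 was nearly even across neurons. GABAergic nuclei had 146 CPM in NFD (140 to 153) and 148 CPM in HFD (142 to 154), and glutamatergic nuclei 145 and 149 CPM, so the class levels differed by less than their counting error. The 11 neuronal clusters spanned 129 to 186 CPM in NFD, a 1.45-fold range, and serotonergic nuclei were at its top with 186 CPM in both libraries. Their intervals overlapped those of dopaminergic nuclei (171 and 173 CPM) and mixed cluster 3 (161 and 166 CPM) in both libraries. In HFD they also overlapped that of glutamatergic cluster 15 (180 CPM). Serotonergic nuclei were 1.27-fold (1.14 to 1.42) above GABAergic nuclei in NFD and 1.254-fold (1.14 to 1.38) in HFD. Astrocytes had lower levels of 82.8 and 75.9 CPM. Oligodendrocyte precursors stood far above all of these, at 568 CPM in NFD (455 to 702, 57 nuclei) and 519 CPM in HFD (425 to 627, 47 nuclei). This was 3.84-fold (3.07 to 4.75) and 3.38-fold (2.77 to 4.09) the level of the neuronal clusters together. Nuclei like cerebellar granule neurons followed in HFD with 237 CPM.

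**Figure D1:**
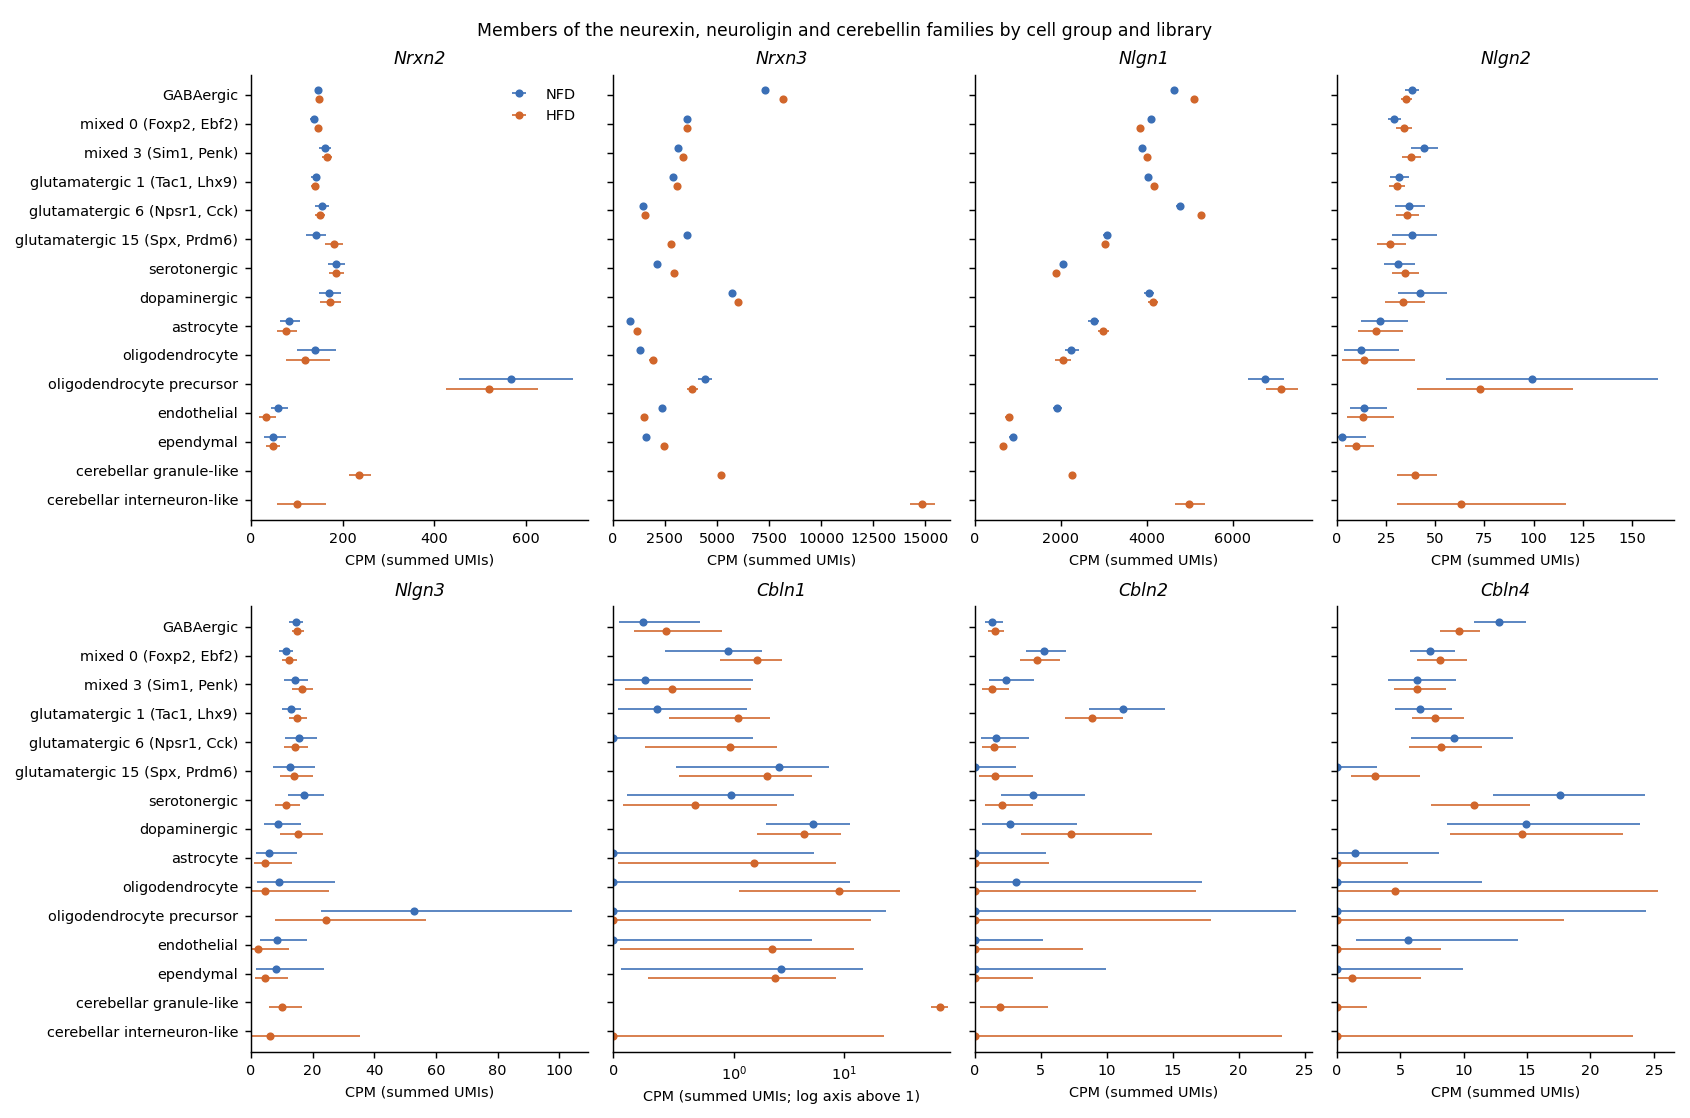
Level of each gene (CPM of summed UMIs, horizontal axis, which is logarithmic above 1 for Cbln1) in 15 cell groups of the NFD (blue) and HFD (orange) libraries; points are the library's value and bars the 95% Poisson interval. Points of fewer than 40 nuclei (the cerebellar-like groups in NFD, 10 and 8 nuclei) are not drawn. Nrxn3 was highest among vlPAG groups in GABAergic nuclei, Nrxn2 and Nlgn1 in oligodendrocyte precursors, Cbln2 in glutamatergic cluster 1 (with dopaminergic nuclei overlapping it in HFD), and Cbln1 reached 75.3 CPM in granule-like nuclei.

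Nlgn1 was also higher in oligodendrocyte precursors than in neurons. These glial nuclei had 6760 CPM in NFD (6352 to 7187) and 7137 CPM in HFD (6777 to 7511), 1.63-fold and 1.66-fold the level of all neuronal clusters. GABAergic nuclei had 4636 CPM (4598 to 4674) and 5099 CPM (5064 to 5135). Glutamatergic nuclei had 4107 and 4328 CPM, so the GABAergic level was only 1.13-fold and 1.18-fold higher, a much smaller step than that of Nrxn3. Within neurons, Nlgn1 ran from 2057 CPM in serotonergic nuclei to 6164 CPM in GABAergic cluster 4 (led by Six3 and Col23a1) in NFD, and from 1891 to 6575 CPM in the same clusters in HFD. Serotonergic nuclei were therefore low in Nlgn1 and among the highest neuronal groups in Nrxn2. Glutamatergic cluster 6, which was lowest in Nrxn3, had Nlgn1 at 4766 and 5256 CPM, above the glutamatergic class as a whole.

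Nlgn2 and Nlgn3 gave few UMIs and showed no clear step between neuronal classes. Nlgn2, the neuroligin of inhibitory synapses, was at 37.9 CPM (34.6 to 41.5) and 35.3 CPM (32.5 to 38.4) in GABAergic nuclei. The glutamatergic class had 33.7 and 31.5 CPM, and the ratio of the classes was 1.13 (0.97 to 1.31) in NFD and 1.12 (0.99 to 1.28) in HFD. For Nlgn3 the GABAergic levels were 14.6 CPM (12.5 to 16.9) and 15.1 CPM (13.2 to 17.1), and the ratio to glutamatergic nuclei was 1.07 (0.85 to 1.35) and 1.03 (0.85 to 1.249). A preference for either class was not detectable at this depth for either gene. Oligodendrocyte precursors had the highest values here too among vlPAG groups. Their Nlgn2 level was 99.1 and 72.8 CPM from 15 UMIs in each library, 2.83-fold (1.58 to 4.68) and 2.13-fold (1.19 to 3.52) that of neurons. For Nlgn3 their 8 and 5 UMIs gave 3.94-fold (1.69 to 7.82) in NFD and 1.68-fold (0.54 to 3.94) in HFD, so the second interval includes no difference. Of the neurexins and neuroligins measured, only Nrxn3 had values in these precursors that were not above those of neurons together (4421 and 3804 against 4473 and 4798 CPM). These precursor levels were still above those of the glutamatergic class (2587 and 2558 CPM).

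The cerebellins were sparse and each had a different pattern. Cbln1 had 29 UMIs in the whole NFD library and 197 in the HFD library, and 119 of the latter (60.4%) came from the granule-like nuclei. Its level there was 75.3 CPM in HFD (62.4 to 90.2), which is 76.5-fold (54.3 to 109) that of vlPAG neurons, while the 10 granule-like NFD nuclei held 2 UMIs. Within vlPAG neurons the dopaminergic nuclei had the highest Cbln1 level, 5.27 CPM in NFD (1.94 to 11.5) and 4.38 CPM in HFD (1.61 to 9.53), from 6 UMIs in each library. Other neuronal clusters together had 0.544 and 0.886 CPM, so the dopaminergic nuclei stood 9.70-fold (3.19 to 25.0) and 4.94-fold (1.72 to 11.7) above them. In GABAergic nuclei Cbln1 was nearly undetected, with 3 UMIs among 2082 nuclei and 7 among 1580.

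Cbln2 was highest in glutamatergic cluster 1 in NFD, and in HFD this cluster and dopaminergic nuclei could not be told apart. In cluster 1 it stood at 11.3 CPM in NFD (8.63 to 14.4, 62 UMIs) and 8.85 CPM in HFD (6.84 to 11.3, 66 UMIs). The remaining neuronal clusters had 2.81 and 2.37 CPM, 4.01-fold (2.85 to 5.59) and 3.73-fold (2.69 to 5.14) lower. GABAergic nuclei had 16 and 24 UMIs, which put cluster 1 8.604-fold (4.90 to 15.97) and 5.90-fold (3.65 to 9.84) above them, and glutamatergic cluster 6 had 1.61 and 1.45 CPM. Dopaminergic nuclei had 2.64 CPM in NFD (0.54 to 7.71, 3 UMIs) and 7.30 CPM in HFD (3.4996 to 13.4, 10 UMIs), and the second interval overlaps that of cluster 1.

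Cbln4 had more UMIs in GABAergic than in glutamatergic nuclei. The GABAergic level was 12.8 CPM in NFD (10.8 to 14.9, 156 UMIs) and 9.63 CPM in HFD (8.17 to 11.3, 154 UMIs), 1.98-fold (1.46 to 2.72) and 1.34-fold (1.03 to 1.74) above glutamatergic nuclei. Serotonergic nuclei had 17.6 and 10.8 CPM and dopaminergic nuclei 14.9 and 14.6 CPM, and the intervals of these 3 groups overlapped in each library. Oligodendrocyte precursors had 0 UMIs of all 3 cerebellins in both libraries, which allows up to 19.8 CPM in NFD and 14.6 CPM in HFD per gene (3 counts), so these limits lie above most neuronal levels and set no order.

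Within counting error, the order of 13 groups was resolved for some genes and not for others. For Nrxn3, 9 of the 12 neighbouring pairs in this order had intervals that did not overlap in NFD and 10 did not in HFD. For Nlgn1 the counts were 8 and 7. Nrxn2 had 2 and 1 such pairs, Nlgn2 and Cbln2 had 1 and 0, and Nlgn3, Cbln1 and Cbln4 had 0 in both libraries, so their neighbours in rank cannot be told apart. The cerebellar-like groups were not in this order. These intervals narrow with the number of UMIs and leave out the spread between nuclei. In cluster 6, for example, 38 nuclei held 45.5% of the Nrxn3 UMIs in NFD, and 37 nuclei held 43.8% in HFD. The same count of neighbouring pairs was not made over all genes.

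Shares of nuclei with a UMI were read after thinning each nucleus to 2000 UMIs, because the HFD library was deeper. In GABAergic nuclei, Nrxn3 was then seen in 98.7% (NFD, 1828 nuclei) and 99.0% (HFD, 1564 nuclei), and Nlgn1 in 98.1% and 98.7%. Endothelial and pericyte or fibroblast nuclei were taken as the non-neural comparison. They showed Nrxn3 in 59.6% of 114 and 24.7% of 73 nuclei and Nlgn1 in 57.9% and 24.7%. Whether these nuclei make such RNA themselves was not tested. These 2 long genes were thus found in many non-neural nuclei, more often in NFD, but in fewer of them than in neurons. Nrxn2 was seen in 25.7% and 24.6% of GABAergic against 13.2% and 12.3% of non-neural nuclei. Without thinning, its GABAergic shares were 52.2% in NFD and 71.3% in HFD, at median depths of 5050.5 and 8967 UMIs. Nlgn2 was seen in 7.17% and 6.71% of GABAergic nuclei against 0 of 114 (which allows up to 2.63%) and 5.48% (1.51 to 13.4) of non-neural nuclei. Nlgn3 was seen in 2.63% (1.94 to 3.47) and 3.45% (2.60 to 4.48) of GABAergic nuclei. In non-neural nuclei it was seen in 3.51% (0.96 to 8.74) and 1.37% (0.035 to 7.40), so the shares could not be told apart. The same held for Cbln4, at 2.95% and 2.30% against 0.877% (0.022 to 4.79) and 0 of 73 nuclei (which allows up to 4.11%). Cbln2 and Cbln1 were seen in at most 0.320% of thinned GABAergic nuclei.

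Between the diets, no member lay past the bound set for a difference in GABAergic nuclei. A gene was called higher or lower when the whole interval of its log2 ratio of HFD to NFD lay beyond 0.32 in either direction (a level 25% higher, or the inverse), and it was measured when it had at least 100 UMIs in the group over both libraries. Of the 6 members measured in GABAergic nuclei, 0 were higher in HFD and 0 lower, where 0.485% of all 12174 genes measured were higher and 1.55% lower. Cbln1 and Cbln2 had too few UMIs to be measured. The median log2 ratio of HFD to NFD was 0.03 over the 6 members and -0.05 over all genes measured.

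The long genes Nrxn3 and Nlgn1 leaned toward HFD in these nuclei within that bound. For Nrxn3 the 7289 CPM in NFD and 8172 CPM in HFD gave a log2 ratio of 0.16 (0.15 to 0.18). The Nlgn1 levels of 4636 and 5099 CPM gave 0.14 (0.12 to 0.15). Their intervals did not overlap between libraries, but with 1 library per diet this says only that the libraries differed. Nrxn2 had a log2 ratio of 0.02 (-0.07 to 0.11), Nlgn2 of -0.10 (-0.28 to 0.08) and Nlgn3 of 0.05 (-0.24 to 0.34), so that for these 3 genes the levels overlapped. Cbln4, at 12.8 CPM in NFD and 9.63 CPM in HFD, had the lowest log2 ratio of the members, -0.41 (-0.74 to -0.08), and its interval reached well inside the bound.

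All neuronal clusters summed also had no member past the bound, while serotonergic nuclei, described further on, had Nrxn3 past it. Over all neuronal clusters 7 members were measured and 0 were higher or lower, where 0.634% and 2.46% of 15304 genes were. In glutamatergic cluster 1 the log2 ratios were 0.08 for Nrxn3, 0.05 for Nlgn1, -0.02 for Nrxn2 and -0.35 (-0.87 to 0.18) for Cbln2. In cluster 6 they were 0.09 for Nrxn3 and 0.14 for Nlgn1. Nrxn3 had positive log2 ratios in 9 of the 11 neuronal clusters, which all come from the same libraries. The same count was 6 for Nrxn2, 7 for Nlgn1, 2 for Nlgn2 and 8 for Nlgn3, and it was not made over all genes. The Nrxn3 ratio was lowest in cluster 15, where its level went from 3549 CPM in NFD to 2780 CPM in HFD (log2 ratio -0.35, -0.41 to -0.29). This small cluster was named glutamatergic from its transmitter markers. Its leading genes were Spx and Prdm6, and Chat and Slc5a7 were also among them. No marker list for cholinergic neurons was used. Dopaminergic nuclei had 0 of 3 measured members past the bound, where 0.793% of 4290 genes were higher and 0.629% lower, and their Nrxn3 and Nlgn1 log2 ratios were 0.06 and 0.03.

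**Figure D2:**
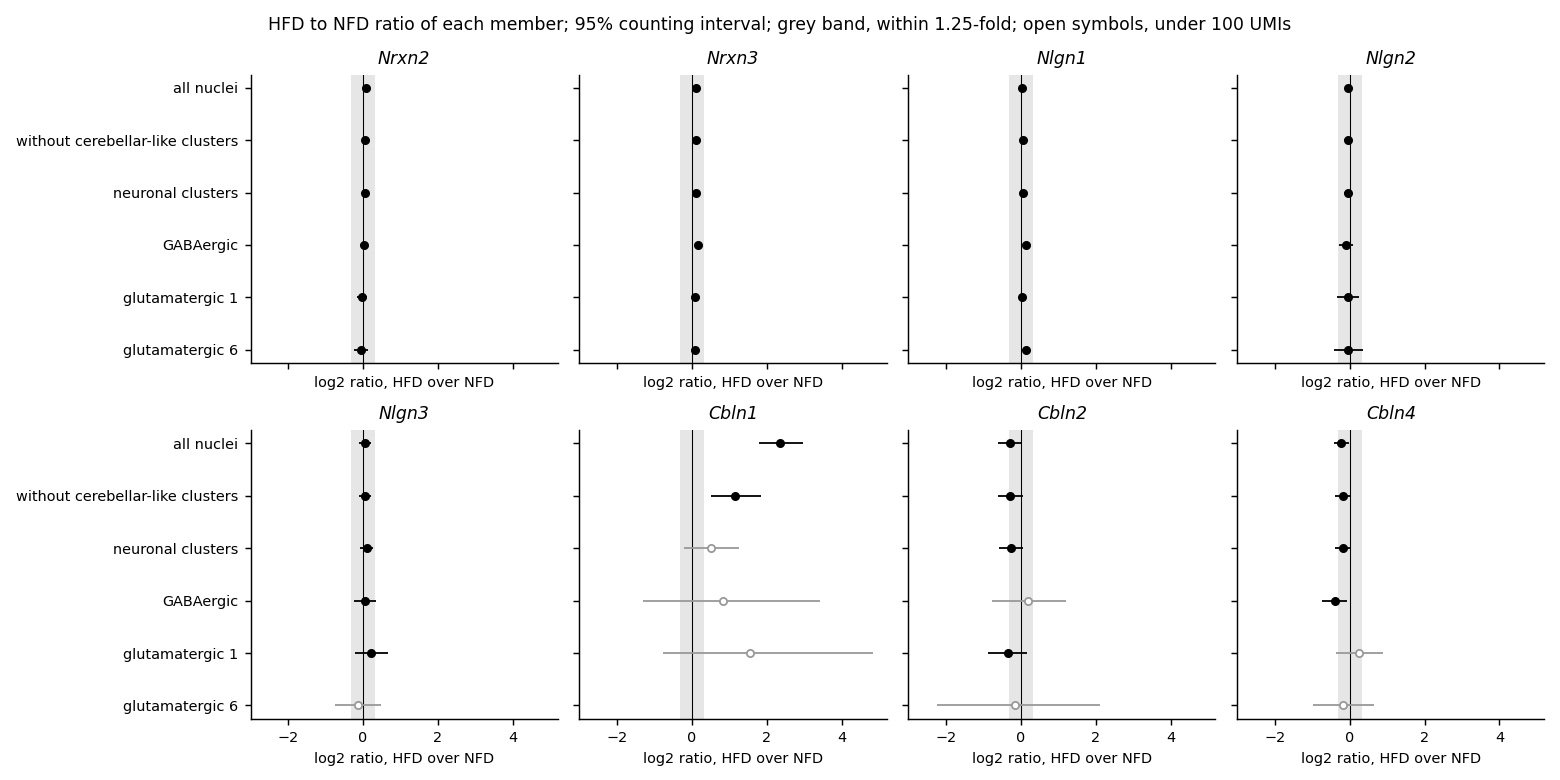
Log2 ratio of the HFD to the NFD level of each gene (horizontal axis) over all nuclei, without the cerebellar-like clusters, in all neuronal clusters, in GABAergic nuclei and in glutamatergic clusters 1 and 6. Bars are 95% counting intervals, the grey band marks log2 ratios within 0.32 of 0 and open symbols rest on fewer than 100 UMIs. Cbln1 over all nuclei lies right of the band at 2.35 and at 1.16 without the cerebellar-like clusters, and the intervals of the other filled points reach into the band or lie within it, with the points of Cbln4 in GABAergic nuclei (-0.41) and Cbln2 in cluster 1 (-0.35) left of it.

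Over all nuclei, Cbln1 was the member that differed between the libraries. Of 8 members measured, 1 was higher in HFD and 0 were lower, where 1.72% and 3.15% of 16345 genes were. Cbln1 stood at 0.707 CPM in NFD (0.473 to 1.02) and 3.61 CPM in HFD (3.12 to 4.15), a log2 ratio of 2.35 (1.79 to 2.97). Without the cerebellar-like clusters the levels were 0.658 CPM (27 UMIs) and 1.48 CPM (78 UMIs), and the log2 ratio was 1.16 (0.52 to 1.85), still past the bound, where 1.21% of genes were higher and 2.71% lower. Of those 78 HFD UMIs, 19 came from 78 nuclei of unnamed cluster 18, led by the glial genes Slc4a4 and Slc1a3, whose 40 NFD nuclei had 0. In the neuronal clusters 26 and 48 UMIs remained, and the log2 ratio was 0.52 (-0.20 to 1.27). Granule neuron markers were also higher in HFD outside the granule-like nuclei, since the 6 markers summed to 4.01 CPM in NFD and 10.3 CPM in HFD GABAergic nuclei (log2 ratio 1.36, 0.89 to 1.85). Whether RNA from cerebellar nuclei reached other droplets was not tested. For the other 7 members the ratios over all nuclei were small, between -0.30 for Cbln2 and 0.12 for Nrxn3.

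In some small classes Nrxn3 and Nlgn1 went past the bound. In serotonergic nuclei (247 in NFD and 165 in HFD) Nrxn3 went from 2126 CPM in NFD (2063 to 2190) to 2927 CPM in HFD (2865 to 2989), a log2 ratio of 0.46 (0.41 to 0.51), and it was 1 of 4 measured members called higher where 1.21% of genes were. Nlgn1 went the other way in the same nuclei, from 2057 to 1891 CPM (-0.12, -0.18 to -0.06). The depth of this class differed more than that of others, with median UMIs of 5981 and 16608. After thinning to 2000 UMIs the Nrxn3 log2 ratio was 0.15 (0.02 to 0.28), with each nucleus weighted equally it was 0.12, and without likely doublets or with all variable genes the call was also lost (0.35 and 0.37).

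Endothelial nuclei (257 and 96) had lower levels of both genes in HFD. Nrxn3 went from 2375 CPM (2263 to 2491) to 1514 CPM (1402 to 1632), a log2 ratio of -0.65 (-0.78 to -0.52), and Nlgn1 from 1915 CPM (1815 to 2019) to 782 CPM (703 to 868), a log2 ratio of -1.29 (-1.46 to -1.12). Both measured members were thus lower, in a class where 10.2% of 2676 genes were. The 5 neuron markers (Rbfox3, Snap25, Syt1, Grin1 and Meg3) were lower in the same nuclei, 5 of 5, with a summed level of 6670 CPM in NFD and 3227 CPM in HFD (log2 ratio -1.05) and none at 0. The part of neuronal RNA in this difference was not tested. With 30 principal components the log2 ratios were -0.24 and -0.27, and neither gene was called.

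Ependymal and oligodendrocyte nuclei had more Nrxn3 in HFD. In ependymal nuclei (106 and 173) it went from 1565 CPM (1441 to 1698) to 2475 CPM (2370 to 2584), a log2 ratio of 0.66 (0.53 to 0.80), where 3.16% of genes were higher. Nlgn1 in these nuclei went from 884 to 649 CPM (-0.45, -0.65 to -0.24), and the 5 neuron markers also went down, 5 of 5, from 2163 to 904 CPM in sum. Nrxn3 therefore moved against the neuron markers in ependymal nuclei and with them in endothelial nuclei. Under a stricter filter (over 1000 UMIs and under 5% mitochondrial) the ependymal Nrxn3 log2 ratio was 0.24 and the call was lost. In oligodendrocytes (124 and 71 nuclei) Nrxn3 went from 1296 CPM (1175 to 1426) to 1934 CPM (1755 to 2127), a log2 ratio of 0.58 (0.38 to 0.78), in a class where 8.63% of 962 genes were higher. Of their 5 neuron markers 4 were higher in HFD, Rbfox3 (55.7 and 214 CPM), Snap25 (192 and 464 CPM), Syt1 (312 and 874 CPM) and Grin1 (77.3 and 127 CPM). Meg3, the most abundant, was lower (2953 and 1816 CPM), so that the sum was 3590 and 3495 CPM. The part of neuronal RNA in the Nrxn3 difference was not tested. Their granule neuron markers summed to 86.6 and 760 CPM, 5 of 6 higher and 1 at 0 in HFD. The call was lost at a resolution of 1.0 (0.11) and after thinning (0.56, 0.19 to 0.93), and the log2 ratio was 1.18 without likely doublets. Astrocytes, with 825 and 1141 CPM of Nrxn3, had a log2 ratio of 0.47 (0.31 to 0.63) and just missed the bound. Oligodendrocyte precursors had 0 of 3 measured members past it, where 2.4% of 541 genes were higher and 1.29% lower. In the granule-like nuclei Nlgn1 was called lower, at 4232 CPM in the 10 NFD nuclei and 2258 CPM in the 814 HFD nuclei, where 2.36% of genes were lower.

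**Figure D3:**
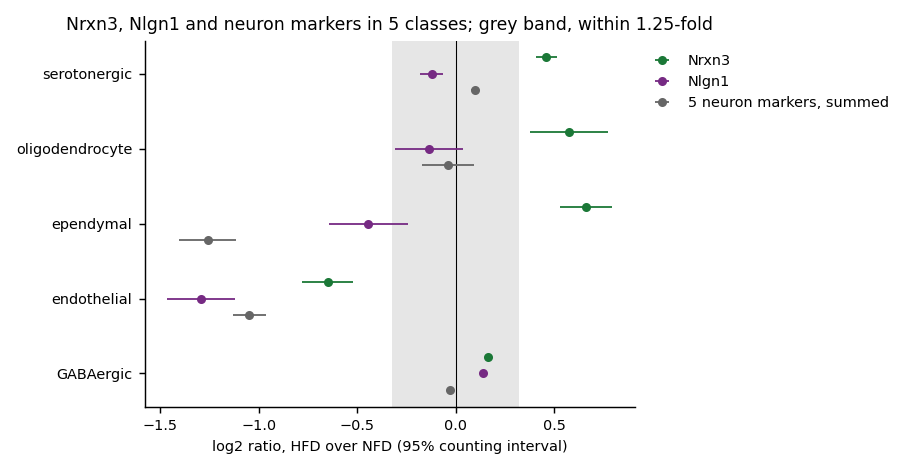
Log2 ratio of HFD to NFD (horizontal axis) for Nrxn3 (green), Nlgn1 (purple) and the summed 5 neuron markers (grey) in 4 small classes and in GABAergic nuclei; bars are 95% counting intervals and the grey band marks log2 ratios within 0.32 of 0. Both genes and the markers lie left of the band in endothelial nuclei (-0.65, -1.29 and -1.05), while in ependymal nuclei Nrxn3 lies right of it at 0.66 and the markers left of it at -1.26.

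GABAergic nuclei with a UMI of Slc32a1, Gad1 or Gad2 were then clustered again, and these were 1634 of 2082 in NFD and 1459 of 1580 in HFD. They formed 9 subclusters, and 7 of these had at least 50 nuclei in each library. Cbln4 was concentrated in a few of them. Subcluster 5, led by Reln and St18, had 50.5 CPM in NFD (35.9 to 69.1, 39 UMIs) and 24.6 CPM in HFD (16.1 to 36.0, 26 UMIs). Subcluster 2, led by Calcr, Foxp2 and Prox1, had 28.4 CPM (20.7 to 38.2, 44 UMIs) and 22.6 CPM (17.3 to 29.1, 60 UMIs). The other subclusters together had 5.82 and 5.04 CPM, apart from the small subcluster 8 (31 and 14 nuclei, 7 and 2 UMIs). Subcluster 8 stood 6.03-fold (2.30 to 13.4) above them in NFD and 3.24-fold (0.38 to 12.2) in HFD, where it could not be told apart from them. Subcluster 5 stood 8.69-fold (5.55 to 13.5) and 4.87-fold (2.94 to 7.88) above the same others, and subcluster 2 stood 4.89-fold (3.17 to 7.52) and 4.49-fold (3.07 to 6.56). These subclusters were set apart after their values were seen, so the folds are descriptions. In subcluster 5 the log2 ratio of HFD to NFD was -1.04 (-1.82 to -0.29) on fewer than 100 UMIs.

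Cbln2 and Nlgn1 shared a high subcluster. Subcluster 4, led by Spag16, Nek10 and Lypd6, had Cbln2 at 7.17 CPM in NFD (2.63 to 15.6) and 8.34 CPM in HFD (4.16 to 14.9), from 6 and 11 of the UMIs of this gene, while Cbln4 had only 1 and 2 UMIs there, at 1.20 CPM (0.030 to 6.66) and 1.52 CPM (0.18 to 5.47), within counting error of subclusters 6 and 7. Nlgn1 reached 7203 CPM (7022 to 7387) and 7639 CPM (7491 to 7790) in the same nuclei, which is the highest subcluster level in both libraries. The lowest was that of subcluster 7, led by Vmn1r209, at 2331 CPM (2198 to 2470, 98 nuclei) and 1791 CPM (1659 to 1930, 47 nuclei). Subcluster 4 stood 3.09-fold and 4.27-fold above it. Nrxn3 varied less, from 6500 CPM in subcluster 4 to 8451 CPM in subcluster 3 (led by Nr4a2 and Satb1) among the 7 larger subclusters in NFD, and from 7395 to 9325 CPM in the same subclusters in HFD. Its log2 ratio was positive in 7 of these 7 subclusters, between 0.09 and 0.25, and that of Nlgn1 in 6 of 7. The subclusters share the same libraries and are not separate observations, and this count was not made over all genes.

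**Figure D4:**
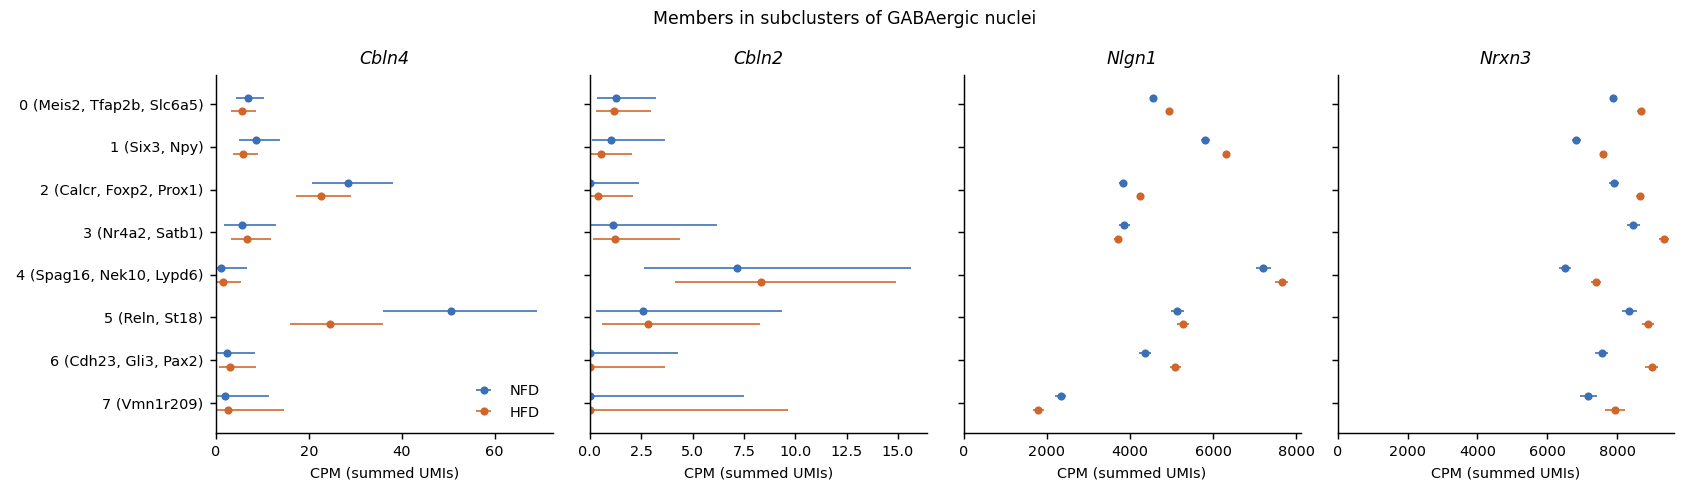
Levels (CPM of summed UMIs, horizontal axes) of Cbln4, Cbln2, Nlgn1 and Nrxn3 in subclusters 0 to 7 of GABAergic nuclei, named by leading genes, in the NFD (blue) and HFD (orange) libraries with 95% Poisson intervals. Cbln4 stands out in subclusters 5 (50.5 and 24.6 CPM) and 2 (28.4 and 22.6 CPM), Nlgn1 and Cbln2 in subcluster 4, and Nrxn3 is high throughout.

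Members were also read in pairs within nuclei thinned to 2000 UMIs. For each pair, the share of nuclei with the second gene was compared between nuclei with and without the first. In GABAergic nuclei 0 of 56 comparisons (each pair in each library) had intervals that lay apart, and the same count of 0 was found in glutamatergic clusters 1, 6 and 15 and in mixed cluster 3. In mixed cluster 0, led by Foxp2 and Ebf2, 1 of 56 comparisons lay apart, in NFD. There Nrxn3 was seen in 82.4% (78.2 to 86.1) of 380 nuclei with Nrxn2 and in 88.4% (86.5 to 90.2) of 1238 nuclei without it. The comparison was not made over all gene pairs, so how often a pair would lie apart by counting error alone is not known. Whether different cell types within this mixed cluster give the gap was not tested. Pairs with Nrxn3 or Nlgn1 in GABAergic nuclei could hardly lie apart, since nearly all of these nuclei had a UMI of both genes, and for the cerebellins the nuclei with a UMI were too few for such a comparison to detect much.

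Across the 22 clusters with both libraries summed, the genes most like each member in log2(CPM + 10) were found by Pearson correlation, as a description over clusters that share 2 libraries and differ in depth. Nrxn2 was most like Myt1 (r = 0.87), a transcription factor of oligodendrocyte precursors and developing neurons, and then Evi5l (0.83) and Rap1gap (0.81). Nlgn2 shared Rap1gap (0.87) and Myt1 (0.86) with it and was most like Lmtk2 (0.89). Nrxn3 was most like Ypel4, Ccser1 and Gdap1l1 (0.83 each), Nlgn1 like Cacng7 (0.92), Slc25a23 (0.91) and Asic1 (0.89), and Nlgn3 like Tdrkh (0.87), Cspg5 (0.87) and B3gat1 (0.86). Cbln1 was most like Rif1 (0.89), Gabra6 (0.89), a GABA-A receptor subunit of cerebellar granule neurons, and its antisense neighbour Gm2694 (0.87). Cbln4 was most like Col8a1 (0.87), Stac (0.85) and Ccdc28a (0.81). The best matches of Cbln2 were lower, with Ncapg2 and Gm28050 at 0.70 and Cpa6 at 0.68. Its level in the 11 neuronal clusters reached at most 11.3 CPM in either library, close to the 10 CPM added. This leaves little range for a correlation. The best match of other genes was not computed as a background for these values. Among the members, Nrxn2 and Nlgn2 (0.77), Nrxn2 and Nlgn3 (0.75), Nlgn1 and Nlgn3 (0.74) and Nrxn3 and Nlgn1 (0.69) were most alike, while the cerebellins ranged from -0.34 to 0.36 with one another.

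The 46 partner genes hold other cerebellin-like ligands, cerebellin receptors, neurexophilins, further neurexin ligands, neuroligin inhibitors, scaffolds and LAR phosphatases with their ligands. In GABAergic nuclei 39 of them were measured, and 0 were higher and 0 lower, beside the background shares of 0.485% and 1.55% given above. Their median log2 ratio was 0.04, close to the 0.03 of the members. For 6 of the 7 roles, the gene with most UMIs is named here. C1ql3, a secreted C1q-like synaptic protein, went from 4.74 to 4.88 CPM (log2 ratio 0.04, -0.47 to 0.56). Nxph1, a neurexophilin that binds neurexins, went from 1815 to 2284 CPM (0.33, 0.31 to 0.36) and so came closest to the bound of these genes. Lrrtm4, a postsynaptic neurexin ligand, went from 3786 to 4098 CPM (0.11), and Mdga2, an inhibitor of neuroligin binding, from 2517 to 2872 CPM (0.19, 0.17 to 0.21). The scaffold Magi2 was at 2842 CPM in both libraries, and the LAR phosphatase Ptprd went from 4374 to 4956 CPM (0.18, 0.16 to 0.20). Over all nuclei 1 of 46 partners was higher, where 1.72% of all genes were, and this was the granule neuron cerebellin Cbln3 with 11 and 110 UMIs (log2 ratio 2.91, 2.02 to 3.95). Without the cerebellar-like clusters 45 partners were measured and 0 were past the bound, where 1.21% of genes were higher and 2.71% lower.

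**Figure D5:**
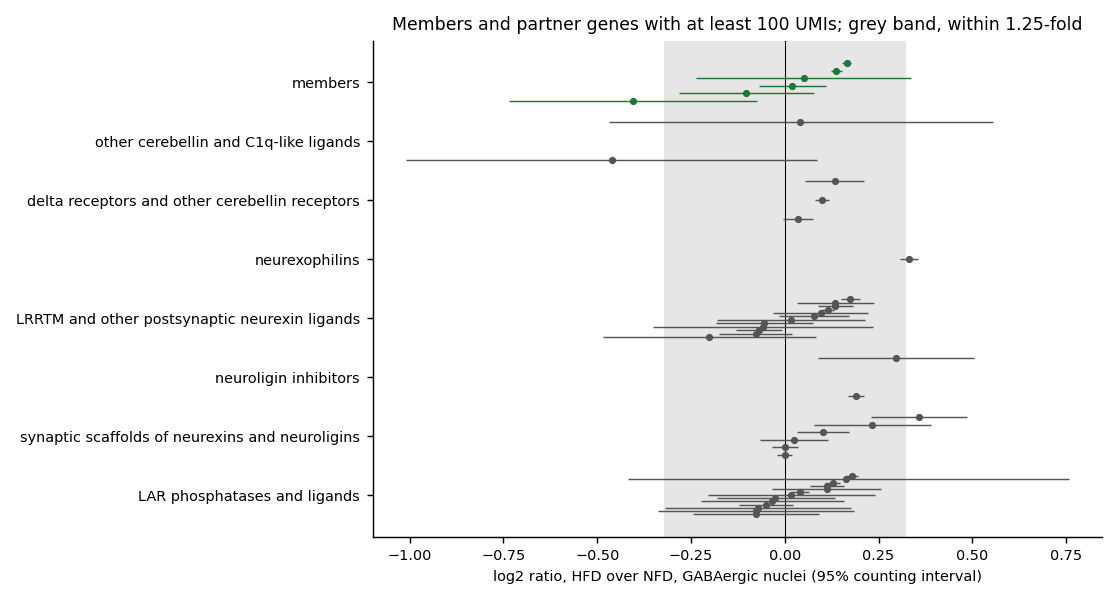
Log2 ratio of HFD to NFD in GABAergic nuclei (horizontal axis) for the 6 measured members (green) and the 39 measured partner genes by role (grey), 1 point per gene with its 95% counting interval; the grey band marks log2 ratios within 0.32 of 0. No gene has its whole interval outside the band, and Cbln4 at -0.41 is the lowest of the members.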

How the data were processed

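The deposited matrices hold whole-number UMI counts per gene and nucleus, which the authors made from reads aligned to GRCm38 with Cell Ranger (version 4.0.0 per the file headers) and analysed in Seurat 3.1.1 per the labels. The libraries hold 41180006 (NFD) and 55133689 (HFD) UMIs, and a count of 0 allows up to 3 counts. Following the study's methods, only nuclei above 500 UMIs with a mitochondrial share below 20% entered. They were normalised to 10000 on a natural log scale and clustered with both libraries together in Seurat 5.3.0 (R 4.3.3, Matrix 1.6.5; 2000 variable genes of which 1996 remained without members and partners, 20 principal components, resolution 0.5, and 0.1 for GABAergic nuclei). Clusters were named from marker lists, which needed a mean log2 fold of 1 or more after adding 10 CPM (for serotonergic and dopaminergic nuclei, 2) and 3 markers seen in 10% of nuclei. GABAergic and glutamatergic meant a 2-fold excess of one transmitter's markers over the other's. These naming thresholds were set after clusters of these data had been seen, and the members, the partner list and the markers were chosen with earlier results of these data known. Scrublet (scanpy 1.11.5) marked 1 and 0 nuclei, too few to have worked, so likely doublets were kept, and the 6% with the highest scores were left out as an alternative. UMIs were summed per library and group (Python 3.11.15, numpy 2.4.6, scipy 1.17.1, pandas 2.3.3, plots in matplotlib 3.10.9), with exact Poisson intervals for CPM, exact conditional binomial intervals for ratios and Clopper-Pearson intervals for shares, all at 95%. Ratios and their intervals were first run on simulated Poisson counts, the model that the intervals assume. This checked the calculation, and spread between nuclei was not simulated. The intervals cover counting error only. The genes named are the 8 members, the partner with most UMIs in each role (1 of which is not reported here) or past the bound, the 3 genes most like each member among those with at least 1000 UMIs over clusters of at least 50 nuclei, and leading genes of clusters. Subcluster and cluster contrasts were chosen after their values were seen. All 55450 gene IDs matched GENCODE vM21.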

Additional observations from a re-analysis of the deposited data

Results flagged for a closer look

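Nrxn3 went in opposite directions between the libraries in classes of the same tissue. Its log2 ratio of HFD to NFD was 0.46 in serotonergic, 0.58 in oligodendrocyte and 0.66 in ependymal nuclei, and -0.65 in endothelial nuclei, each past the bound of 0.32. Each of these 4 calls was lost under at least 1 alternative processing, as described with each class above. The classes come from the same 2 libraries, and with 1 library per diet the difference between classes was not tested. Beside these values, the summed neuron markers had log2 ratios of 0.10, -0.04, -1.26 and -1.05 in the same order of classes. In oligodendrocytes 4 of the 5 neuron markers were higher in HFD and Meg3 alone was lower.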

How the results depend on the processing

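The alternatives were run for the members in GABAergic nuclei, over all nuclei and, for Nrxn3 and Nlgn1, in 4 small classes (not for the granule-like nuclei or the partner genes). In these, no alternative turned the direction of a ratio that was past the bound, and the counts of members past it were 0 and 0 in GABAergic nuclei and 1 and 0 over all nuclei under every alternative run for them. Weighting each nucleus equally gave no intervals, so no such counts exist for it. In GABAergic nuclei the log2 ratio ranged from 0.10 to 0.25 for Nrxn3, from 0.09 to 0.19 for Nlgn1 and from -0.45 to -0.17 for Cbln4. It ranged from -0.03 to 0.08 for Nrxn2, from -0.14 to -0.04 for Nlgn2 and from -0.12 to 0.41 for Nlgn3. The log2 ratio of Cbln1 over all nuclei ranged from 1.16 without the cerebellar-like clusters to 3.41 with each nucleus weighted equally. Of the small classes, Nrxn3 ranged from 0.12 to 0.46 in serotonergic, 0.11 to 1.18 in oligodendrocyte, 0.24 to 0.66 in ependymal and -1.41 to -0.24 in endothelial nuclei. In each of these classes the Nrxn3 call was lost under at least 1 alternative. The cause of these shifts was not tested. Of the 16 pairs of member and library, 12 to 16 had the same class with the highest level. This count took only classes of at least 50 nuclei and left out mixed and unnamed clusters. The 47 oligodendrocyte precursors of the HFD library were therefore not in it. Their top place in that library was not tested under the alternatives. Depth limits Nlgn2, Nlgn3 and the cerebellins most. No paired analysis was possible because each diet has 1 library.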
